A study of Mus musculus with 78 samples.

Results

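DNA replication licensing was followed through 10 genes, Mcm2, Mcm3, Mcm4, Mcm5, Mcm6, Mcm7, Cdc6, Cdt1, Cdc45 and Orc1. They were chosen by name from the 55401 genes of the count tables, with earlier results of these data known. Their new transcripts and their RNA were measured in mouse embryonic stem cells (E14TG2a) after loss of the transcription factor ZFP143. The cells carried the FKBP degron with HA and GFP tags at the endogenous Zfp143 gene in all groups, came from sorted and picked homozygous clones, and received either DMSO or 500 nM of dTAG-V1, a compound that sends the tagged protein to degradation. Transient transcriptome sequencing (TT-seq), which reads RNA made during 10 min of 4-thiouridine labelling, compared DMSO with 2, 6 and 24 h of dTAG. RNA-seq compared DMSO with 24, 48 and 72 h of dTAG. A separate RNA-seq experiment kept cells for 24 h in DMSO or dTAG in stem cell medium and then gave retinoic acid (RA) in N2B27 medium for 24 h in the same condition, so depleted RA cells had 48 h of dTAG, and RA and the change of medium cannot be told apart. Each group had 2 biological replicates, and all p-values rest on the spread between them.

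Licensing is the step by which an origin is made ready to replicate once per cell cycle. The origin recognition complex, of which ORC1 is the largest subunit, marks the origin, and CDC6 and CDT1 then help to load the ring of MCM2 to MCM7, the inactive replicative helicase. CDC45 joins the ring later, when the origin fires, and turns it into the moving helicase. In many cell types transcription of these genes peaks before S phase under the control of E2F factors, and embryonic stem cells, which spend little time in G1, are known for high levels of the MCM genes.

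The ChIP-seq list of ZFP143, read with an antibody against the HA tag, had a peak at the promoter of 3 of the 10 genes, Mcm3, Cdc6 and Cdc45. The same measure found a peak at 14.7% of the annotated genes tested in TT-seq, 15.9% of those in the RNA-seq time course and 14.9% of those in the RA experiment. The Cdc6 peak (mm10, chr11:98907394-98907938) had 57.1-fold enrichment over input, the Mcm3 peak (chr1:20820171-20820698) 38.5-fold and the Cdc45 peak (chr16:18811865-18812352) 29.3-fold, against a median of 20.8-fold over the 3189 peaks of the list. Their centres lay 135, 122 and 122 bp upstream of the annotated start. Among the other 7 genes the nearest peak centre was 10.1 kb from a start of Mcm7, 16.1 kb from one of Orc1, 91.1 kb from Mcm5, 96.6 kb from Mcm6 and between 380 and 576 kb from Mcm2, Cdt1 and Mcm4. CTCF peaks, listed for DMSO and dTAG cells together, lay at the promoters of Mcm5 and Cdt1, 2 of 10 against 20% of the genes tested in the time course. The lists hold no replicates, so the values have no error.

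The bases under the summits of the 3 peaks are shown because they hold an exact match to words known from ZFP143 sites at Mcm3 and Cdc45, and none at Cdc6. Letters in capitals mark CCCANNATG at Mcm3 and Cdc45, preceded at Cdc45 by ACTACAA, and at Cdc6 the E2F letters TTCCCGC. The Cdc6 bases just before TTCCCGC read actacac, which differs from ACTACAA in its last base alone. The capitals there do not name the factor bound. All 3 sequences are read 5′ to 3′ on the strand of the gene from GRCm38.p6, the build called mm10, at chr1:20820472-20820528 (minus strand), chr16:18812047-18812112 (minus strand) and chr11:98907571-98907670 (plus strand).
Mcm3: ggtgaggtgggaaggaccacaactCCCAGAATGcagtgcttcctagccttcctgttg
Cdc45: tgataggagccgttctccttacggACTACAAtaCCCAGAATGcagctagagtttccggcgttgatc
Cdc6: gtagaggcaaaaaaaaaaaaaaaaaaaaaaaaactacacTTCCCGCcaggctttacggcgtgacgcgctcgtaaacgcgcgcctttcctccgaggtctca

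The first base of CCCANNATG at Mcm3 coincided with the peak summit, 192 bases upstream of the start. At Cdc45 the pair of matches began 101 and 92 bases upstream of the start, and the summit was at 86. At Cdc6 the summit was at 180 bases upstream and TTCCCGC began at 191, and none of the 3 ZFP143 words searched on both strands, which were ACTACAA, then TTCCCAG, and then CCCANNATG, was in the 300 bases around it in its exact letters, and near matches were not searched. Such a word was present in 60.9% of the 3189 summit windows of that length and in 17.7% of 32851 RefSeq promoters. Of the 9 licensing genes with a promoter in that table, 3 had one, Mcm3, Cdc45 and also Mcm5, which has no ZFP143 peak and holds CCCANNATG on the opposite strand, its match beginning 72 bases upstream of the start. A match is only a run of letters and was not tested as a site.

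E2F words (TTCCCGC or its variant TTGGCGC, either strand) were found in the RefSeq promoters (250 bases before to 50 after the start, GRCm38.p6) of 6 of the 9 genes with an entry, Mcm3, Mcm5, Mcm6, Mcm7, Cdc6 and Cdt1, against 6.81% of all promoters in the table. The table had no entry for Mcm4, and its Cdc6 entry began downstream of the start at the peak, so the word printed above is not the one counted here. CCAAT was in the promoters of 7 of 9 genes and in 37.4% of all, and GGGCGG, the core of SP1 sites, in 7 of 9 and 35.7%. Log2 effects of RA in DMSO were −1.90, −1.19 and −0.32 for Orc1, Mcm2 and Cdc45, which had an entry without an E2F word. For the 6 genes with one they ran from −0.64 (Mcm6) to −1.88 (Mcm7), and a link was not tested. The upstream parts of the Mcm6 and Mcm5 promoters are printed, with the E2F words in capitals, because Mcm6 had the greatest decrease of the 10 RNAs over depletion and Mcm5 one of the greatest with RA. They lie at chr1:128359721-128359838 (minus strand) and chr8:75109321-75109390 (plus strand), and each holds 2 copies of TTGGCGC, forward in Mcm6 and as its reverse complement in Mcm5.
Mcm6: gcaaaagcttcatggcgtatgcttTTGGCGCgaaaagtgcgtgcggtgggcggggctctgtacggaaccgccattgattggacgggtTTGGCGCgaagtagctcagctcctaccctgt
Mcm5: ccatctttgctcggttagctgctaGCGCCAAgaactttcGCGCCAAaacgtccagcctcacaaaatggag

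The 3 tables held 8 libraries each, with total counts from 9721568 to 16532077 in TT-seq, 10261851 to 15316700 in the time course and 13890761 to 27089033 in the RA experiment. The common biological coefficient of variation was 17.2%, 3.65% and 5.92%, so TT-seq was the least precise. The depletion acts on the protein, and Zfp143 transcripts rose in each comparison of dTAG with DMSO, by 2.24-fold at 2 h in TT-seq, by 2.47-fold at 72 h in RNA-seq and by 2.6-fold after RA (edgeR, adjusted p = 0.00104, 3.43e-12 and 4.14e-08). The summed level of 9 stem cell markers was 5862 to 5973 CPM (counts scaled to a common library size, with TMM factors) in DMSO and 4064 to 4121 after 72 h. In the RA experiment it was 6707 to 6902 (DMSO) against 5796 to 5834 (dTAG) before RA and 744 to 1112 (DMSO) against 1383 to 1619 (dTAG) with RA, and that of 7 RA response genes was 8.03 to 9.57, 13.9 to 14, 831 to 1088 and 297 to 326 in the same order. The 5 primitive endoderm markers summed to 28.1 to 29.5 and 50.6 to 54.4 CPM after RA in DMSO and dTAG, the 3 2-cell-like markers to 38.5 to 38.6 and 145 to 174, and the 5 fibroblast markers to 6.54 to 10.3 and 25.9 to 26.2, with Dcn and Lum at 0 in both. The 4 neural markers were at 241 to 256 CPM (DMSO) against 138 to 139.9 (dTAG) before RA and 108 to 124 against 50.4 to 52.9 with RA. In the time course they were at 218 to 226 CPM in DMSO and 130.2 to 132, 97.2 to 104 and 136 to 143 at 24, 48 and 72 h of dTAG. The 4 trophoblast markers were at 24.7 to 24.8 CPM in DMSO and 6.48 to 9.36, 10.2 to 12.6 and 16.3 to 17.1 in the same order, with Cdx2 at 0 throughout, and the primitive endoderm markers at 6.25 to 6.63 in DMSO and 10.4 to 11.1, 15.3 to 16.7 and 13.4 to 14.7. Fewer cells of a type and less RNA per cell cannot be told apart in such bulk samples, and the part of these shifts in the values below was not tested.

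In DMSO cells of the time course the licensing RNAs spanned about an order of magnitude. Per kb of exon, Mcm5 had a mean level of 199 CPM, Mcm3 189, Mcm6 136, Mcm4 115, Mcm7 110.0, Cdt1 106 and Mcm2 83.1. The loading factor Cdc6 was the lowest of the 10 at 17.6 CPM per kb, below Cdc45 at 24.7 and Orc1 at 31.6. The libraries of Mcm4, Mcm7 and Cdt1 overlapped with their neighbours in this order, and all other neighbours were apart in both libraries. New transcripts per kb of gene in the DMSO libraries of TT-seq had another order, with Mcm7 at 32.2 CPM and Cdt1 at 30.6 first and overlapping, Mcm5 at 19.7, and Cdc45 lowest at 3.38. Mcm6 was the third of the 10 in RNA and the seventh in new transcripts, at 6.63 CPM per kb, where its libraries overlapped those of Cdc6.

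TT-seq asked whether transcription of the licensing genes changed within hours of ZFP143 loss. None of the 10 genes passed the test at 2, 6 or 24 h (edgeR quasi-likelihood, adjusted p under 0.05 and absolute log2 change above 0.5), and none did at an adjusted p under 0.05 with no minimum change. Of all 17870 genes tested, 2.43% were called lower at 2 h, 2.83% at 6 h and 4.09% at 24 h, so 0 of 10 is close to the background. At an unadjusted p under 0.05 the count among the 10 was 2, 2 and 2, against 2017, 3112 and 3884 of the 17870. DESeq2 called none of the 10. The median log2 change of the 10 was −0.06, −0.02 and −0.13 against 0.01 over all genes at each time.

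None of the 3 genes with a ZFP143 peak was among the genes called in TT-seq. New transcripts of Mcm3 were at 315 and 273 CPM in DMSO, while 2 h of dTAG gave 270.4 and 284, 6 h 285 and 288 and 24 h 288 and 248, and the groups overlapped throughout. Cdc45 was at 102 and 111 CPM in DMSO, while 2 h of dTAG gave 104 and 109, 6 h 102 and 110.3 and 24 h 82 and 95.6, with overlap up to 6 h and both libraries below DMSO at 24 h. Cdc6 was at 107 and 105 CPM in DMSO, while 2 h of dTAG gave 138 and 130.5, 6 h 132 and 137 and 24 h 112 and 91.8. Both treated libraries of Cdc6 were above DMSO at 2 and 6 h, with a log2 change of 0.34 ± 0.13 (SE) at 2 h that failed the correction (adjusted p = 0.343). The 95% intervals of the log2 change at 2 h were −0.37 to 0.20 for Mcm3, −0.29 to 0.28 for Cdc45 and 0.05 to 0.63 for Cdc6.

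**Figure D1:**
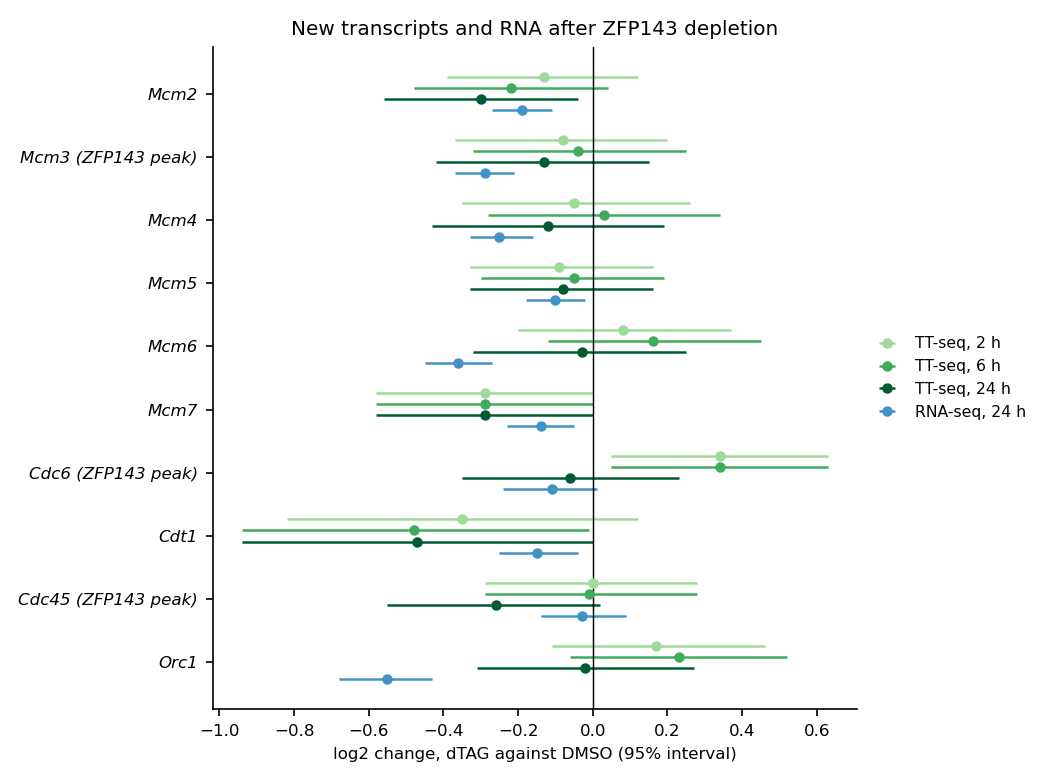
Log2 changes of the 10 licensing genes after dTAG against DMSO, with 95% intervals, in TT-seq at 2, 6 and 24 h (greens) and in RNA-seq at 24 h (blue); 2 libraries per group. The TT-seq intervals are wider, and that of Orc1 at 24 h lies to the right of its RNA-seq interval, with a log2 change of −0.02 in TT-seq and −0.55 in RNA-seq.

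Among the 7 genes with no peak, the log2 change of the loading factor Cdt1 in TT-seq was −0.35 after 2 h, −0.48 after 6 h and −0.47 after 24 h. Its DMSO libraries were far apart, at 203 and 136 CPM, and the treated ones lay at 129.8 and 137, 120.3 and 124 and 142 and 103. Without DMSO replicate 1 its log2 changes were −0.04, −0.17 and −0.16. Mcm7 was at 265 and 241 CPM in DMSO and 192 and 221 after 2 h, with a log2 change of −0.29 at each time (adjusted p from 0.228 to 0.44). Without 1 library this change ranged from −0.39 to −0.19 at 2 and 6 h and from −0.34 to −0.23 at 24 h. Mcm7 overlaps Cops6 and Ap4m1 on the opposite strand and hosts the microRNAs Mir25, Mir93 and Mir106b, and TT-seq reads were counted by strand. The strand used for the RNA-seq counts is not given, so RNA levels of Mcm7, of Cdc45, which overlaps Ufd1 on the opposite strand, and of Orc1, which overlaps Gm12743 there, are uncertain to that extent. Counts of Cdt1, which overlaps Gm20388 on its own strand, are uncertain in both assays. Mcm2 was at 179 and 181 CPM in DMSO and 139 and 154 after 24 h, a log2 change of −0.30 ± 0.11 (adjusted p = 0.17). The interval of Mcm6 at 24 h was −0.32 to 0.25, and that of Orc1 was −0.31 to 0.27. All 10 log2 changes were below 0 at 24 h, but those of Mcm6 and Orc1 were above 0 when scaled by library size alone. Without 1 library those of Mcm6, Orc1, Cdc6 and Mcm4 reached 0.09, 0.09, 0.09 and 0.01.

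The RNA-seq time course asked how the licensing RNAs moved over 24, 48 and 72 h of depletion. They were lower by small steps, with a median log2 change over the 10 genes of −0.17 at 24 h, −0.47 at 48 h and −0.52 at 72 h, against 0.02, 0.01 and 0.02 over all genes. Mcm6, a subunit of the helicase ring, fell at 48 h and further at 72 h, to 2.42-fold less than in DMSO. Cdc6 passed the same test at 48 h and Mcm7 at 72 h. The test asked for a change beyond 1.5-fold (edgeR glmTreat, adjusted p under 0.01), and it called 0, 2 and 2 of the 10 genes lower at 24, 48 and 72 h, against 3.41%, 7.71% and 12.0% of the 13925 genes tested. Against no change (quasi-likelihood, adjusted p under 0.05), 8, 10 and 10 of the 10 were lower, against 24.3%, 33.4% and 36.2% of all genes. At 24 h DESeq2 also called 0 of the 10 beyond 1.5-fold. An unadjusted p under 0.05 against no change was found for 8 of the 10, against 7366 of the 13925 genes. None of the 10 was higher in either test.

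**Figure D2:**
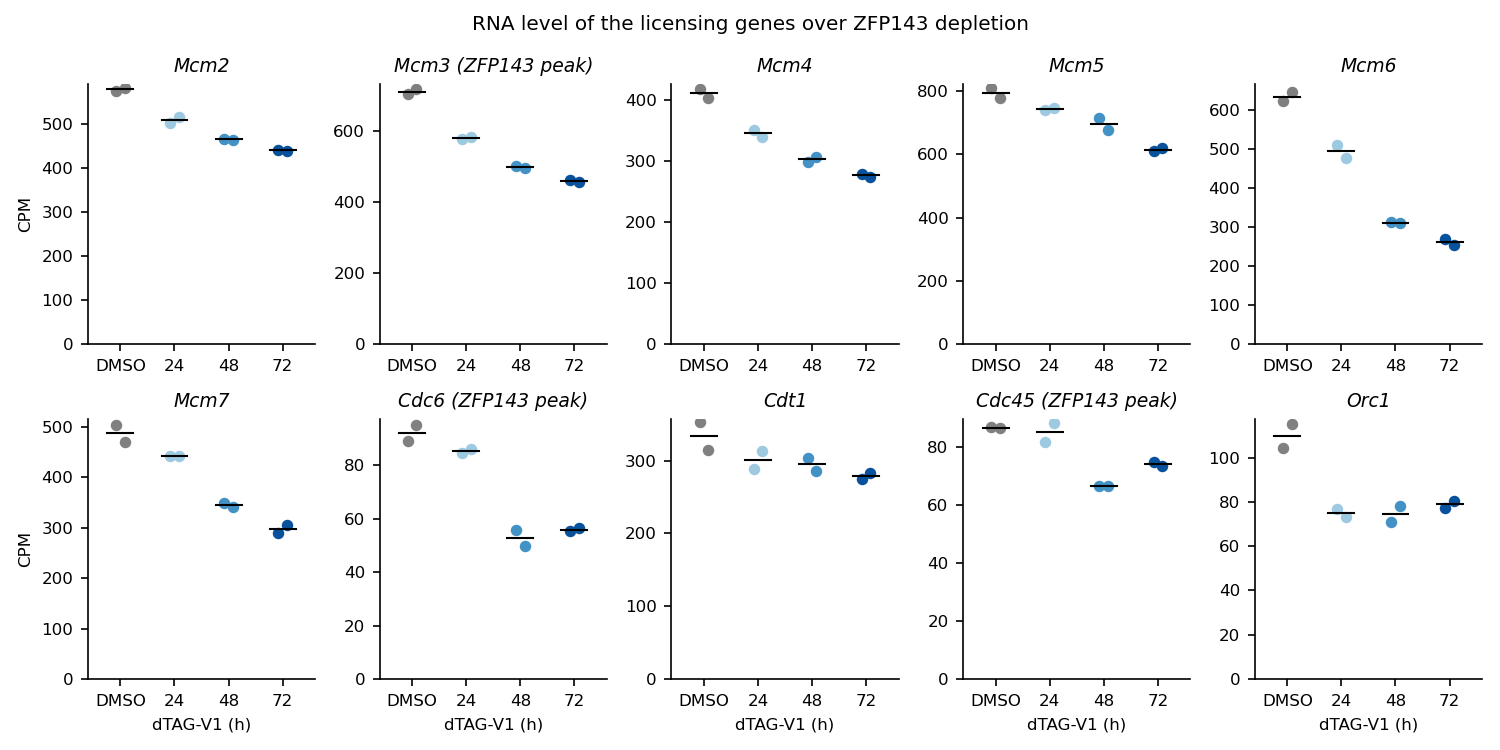
RNA level (CPM, scaled by TMM, axis from 0) of the 10 licensing genes in the 2 libraries of each group (points) with their mean (line), in DMSO and after 24, 48 and 72 h of dTAG. The libraries of Mcm6 are at 623 and 645 in DMSO and 269 and 255 after 72 h, while those of Cdt1 are at 353 and 314 and 274 and 283.

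Mcm6 RNA was at 623 and 645 CPM in DMSO, and dTAG for 24 h gave 511 and 478, for 48 h 312 and 311 and for 72 h 269 and 255. The groups did not overlap at any step, and each was below the one before. Its log2 change was −0.36 ± 0.043 (SE) at 24 h, −1.03 ± 0.044 at 48 h (glmTreat, adjusted p = 1.57e-10) and −1.28 ± 0.044 at 72 h (adjusted p = 6.51e-15). The change from 24 to 72 h was −0.92 ± 0.044 (adjusted p = 6.82e-08), which made Mcm6 the 1 member of 10 called in this comparison, where 6.60% of all genes were called lower. Mcm6 was called lower at 48 and 72 h in every alternative run.

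Of the other MCM genes, Mcm7 was at 504 and 470.1 CPM in DMSO, and dTAG for 24 h gave 441 and 441, for 48 h 349 and 341 and for 72 h 290.3 and 305. Its log2 change of −0.71 ± 0.043 at 72 h passed the test (glmTreat, adjusted p = 0.00361), but not with library size alone (log2 change −0.49, adjusted p = 1), with DESeq2 (adjusted p = 0.0425) nor without DMSO replicate 1 (0.0556) or 72 h replicate 1 (0.0547). Mcm3, which has a ZFP143 peak, was at 703 and 717 CPM in DMSO and 578 and 582, 502 and 495 and 463 and 455 after 24, 48 and 72 h. Its steps were in 1 direction, to a log2 change of −0.63 ± 0.039 at 72 h (quasi-likelihood, adjusted p = 2.02e-14, glmTreat 0.118). Mcm4 was at 419 and 404 CPM in DMSO and 280.0 and 274 after 72 h, a log2 change of −0.57 ± 0.042. Mcm2 went from 575 and 581 to 441 and 439 CPM, a log2 change of −0.39 ± 0.039. Mcm5 went from 811 and 778 to 611 and 620.1 CPM, a log2 change of −0.37 ± 0.04. All 3 passed the quasi-likelihood test alone at 72 h (adjusted p = 1.02e-12, 5.73e-10 and 2.91e-09), and the subunits of 1 ring thus spread from −0.37 to −1.28 on the log2 scale.

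The origin recognition subunit Orc1 was as low at 24 h as later. Its RNA was at 105 and 115 CPM in DMSO and 76.8 and 73.3, 70.7 and 78.3 and 77.4 and 80.4 after 24, 48 and 72 h, with all 6 depleted libraries below DMSO and those at 48 h spanning those at 24 h. The log2 change was −0.55 ± 0.061 at 24 h (quasi-likelihood, adjusted p = 1.7e-08, interval −0.68 to −0.43) and that from 24 to 72 h was 0.07 ± 0.063 (adjusted p = 0.31). Cdc6 moved later, with 89.1 and 94.9 CPM in DMSO, and dTAG for 24 h gave 84.4 and 85.9, for 48 h 55.9 and 49.8 and for 72 h 55.2 and 56.4. Its log2 change was −0.11 ± 0.06 at 24 h (quasi-likelihood, adjusted p = 0.122) and −0.80 ± 0.064 at 48 h (glmTreat, adjusted p = 0.0015). The call at 48 h was lost with library size alone (log2 change −0.60, adjusted p = 0.534), with DESeq2 (0.0816) and without DMSO replicate 2 (0.0233) or 48 h replicate 2 (0.0675), and at 72 h, where it was not called, the adjusted p was 0.0174 (0.00725 without DMSO replicate 1 and 0.00873 with no count filter, which passed).

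Cdt1 RNA moved least among the loading factors, from 353 and 314 CPM in DMSO to 274 and 283 after 72 h, a log2 change of −0.26 ± 0.051 (quasi-likelihood, adjusted p = 6.4e-05). Cdc45 was at 86.6 and 86.4 CPM in DMSO, and dTAG for 24 h gave 81.6 and 88.3, for 48 h 66.3 and 66.5 and for 72 h 74.7 and 73.3. It overlapped DMSO at 24 h, and its log2 change was −0.38 ± 0.059 at 48 h and −0.23 ± 0.057 at 72 h (quasi-likelihood, adjusted p = 1.99e-06 and 0.000894). From 24 to 72 h, 8 of the 10 genes were lower in the quasi-likelihood test against 32.3% of all genes, and Cdt1 and Orc1 were not among them. These directions depend on scaling for the smallest changes: with library size alone, which moved the median of all genes to between 0.15 and 0.23, the values of Mcm5, Cdc6 and Cdc45 at 24 h and of Mcm5 and Cdt1 at 48 h were just above 0.

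New transcripts and RNA at 24 h could be set side by side, although they come from separate tables and the difference was not tested. Orc1 had an RNA interval of −0.68 to −0.43 and a TT-seq interval of −0.31 to 0.27, which do not overlap. The RNA and TT-seq values of Mcm6 were −0.36 and −0.03, those of Mcm3 −0.29 and −0.13, and those of Cdt1 −0.15 and −0.47, with overlapping intervals for each. Without 1 library the TT-seq value of Mcm3 ranged from −0.24 to −0.02 and the RNA value of Cdt1 from −0.23 to −0.07. The DMSO and dTAG libraries of the RA experiment before RA were a second measure at 24 h with their own controls. There 0 of 10 genes were called beyond 1.5-fold, against 3.66% of the 15915 genes tested, and 9 of 10, all but Cdc45, were lower in the quasi-likelihood test, against 18.8%. DESeq2 called 0 beyond 1.5-fold there as well. An unadjusted p under 0.05 was found for 9 of the 10, against 7936 of the 15915 genes. Orc1 had a log2 change of −0.42 ± 0.073 there, Mcm4 −0.50 ± 0.068, Cdt1 −0.43 ± 0.073 and Mcm6 −0.39 ± 0.079, and the median of the 10 was −0.39 against 0.06 over all genes.

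The licensing genes were next set beside 106 other genes of the cell cycle and its replication machinery, in 8 lists, of which 104 were tested in TT-seq. At 2 h 8 of the 104 were called lower in TT-seq, against 2.43% of all genes, and none higher, and all 8 had a ZFP143 peak at their promoter, as had 22 of the 104 in all. Over all genes, 88.7% of the 434 annotated genes called lower at 2 h had such a peak. The 8 were Fzr1 and Skp2, which direct the degradation of cell cycle proteins, Rbl1, a pocket protein that restrains E2F, Prim1 (primase), Lig1 (DNA ligase), and the mitotic genes Kif20a, Bub1b and Plk1. Fzr1 had a log2 change of −1.05 ± 0.14 (quasi-likelihood, adjusted p = 0.00481), Rbl1 −1.03 ± 0.19 (adjusted p = 0.0261), Prim1 −0.90 ± 0.17 (adjusted p = 0.0279) and Kif20a −0.67 ± 0.13 (adjusted p = 0.0365). When 1 library was left out, 0 to 2 of the 104 were called at 2 h. The 3 licensing genes with a peak are among those whose new transcripts were not called, as were 14 of the 22 listed genes with a peak.

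**Figure D3:**
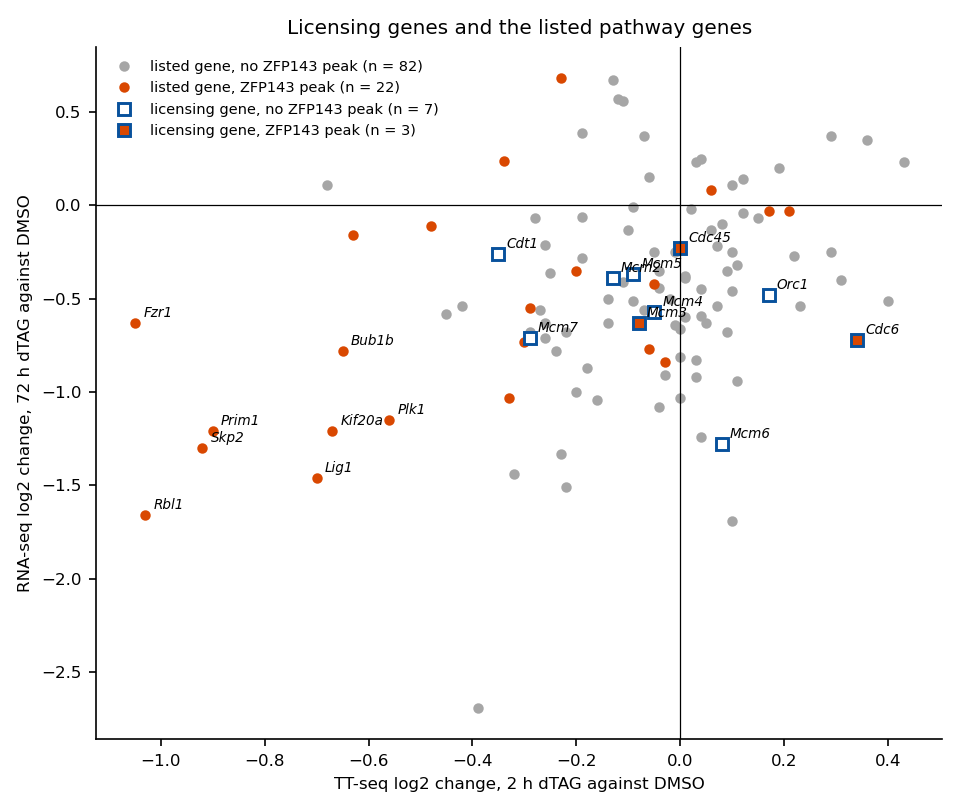
Each point is 1 gene, with its log2 change in TT-seq after 2 h of dTAG on the x axis and in RNA-seq after 72 h on the y axis; squares are the 10 licensing genes, circles the 104 listed pathway genes, and orange fill marks a ZFP143 peak at the promoter. Labelled circles are the 8 listed genes called lower at 2 h, all orange and at or left of −0.56, while the licensing genes lie between −0.35 and 0.34 on the x axis.

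Origin firing genes, the regulators that turn licensed origins into forks, had no gene of 17 called in TT-seq (edgeR). At an unadjusted p under 0.05 there were 4, 3 and 2 at 2, 6 and 24 h, against 2017, 3112 and 3884 of 17870 genes. At 24 h Ccne2, a cyclin with a ZFP143 peak, was at 22 ± 0.0999 CPM (SD, n = 2) in DMSO and 10.8 ± 0.636 in dTAG, a log2 change of −1.02 ± 0.12 (glmTreat, adjusted p = 0.00172), and its change was −1.57 at 48 h. At 72 h it was −0.73 ± 0.11 and no longer called (adjusted p = 0.0887). Ccne1 had the greatest decrease of the list at 72 h, −1.33 ± 0.058 (adjusted p = 7.91e-13), and 4 of 17 were called lower, against 12.0% of all genes at that time. Of the 9 other origin recognition and licensing factors, none was called lower or higher by glmTreat over depletion. In the quasi-likelihood test at 72 h 5 were lower and 1 higher, where 36.2% of all genes were lower and 36.5% higher. An unadjusted p under 0.05 was found for 6 of the 9, against 10363 of 13925 genes. The median of these 9 factors at 72 h was −0.13 against −0.52 for the 10 licensing genes.

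Among 29 replication fork genes, 2, 5 and 7 were called lower at 24, 48 and 72 h, against 3.41%, 7.71% and 12.0% of all genes, and none higher. Lig1 had the greatest decrease at 24 and 48 h, −1.06 and −1.49 ± 0.049 (glmTreat, adjusted p = 3.2e-16), and Dna2, a nuclease of lagging strand synthesis, at 72 h with −1.69 ± 0.056 (adjusted p = 4.27e-17). Pold2, a polymerase subunit, had the greatest decrease between 24 and 72 h, −1.39 ± 0.058 (adjusted p = 4.33e-13). Of the 7 genes of nucleotide supply, 0, 3 and 4 were called lower at the same times, against the same shares, led by the thymidine kinase Tk1, which was at 84.9 ± 0.124 CPM in DMSO and 13 ± 1.16 after 72 h, a decrease of 6.46-fold (adjusted p = 2.52e-19). Tk1 and Rrm2 had no ZFP143 peak and were called in TT-seq at 24 h but not at 2 or 6 h, with a log2 change of −1.14 ± 0.15 for Tk1 (quasi-likelihood, adjusted p = 0.0034).

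In the list of 13 E2F and pocket proteins, 1, 2 and 5 genes were called lower at 24, 48 and 72 h. Rbl1 was the furthest at each time, with −1.66 ± 0.087 at 72 h (glmTreat, adjusted p = 1.66e-12), and its relative Rbl2 rose at 48 h by 2.06-fold (adjusted p = 3.83e-05), the 1 listed gene of 106 called higher over the time course, where 10.5% of all genes were at 48 h. Tfdp2, a partner of E2F factors, had the greatest decrease from 24 to 72 h, −0.88 ± 0.062 (adjusted p = 5.66e-05). Of 10 genes that act in turnover of licensing factors, Skp2 was the furthest at each time, with −1.36, −1.30 and −1.30 ± 0.071 (adjusted p = 1.51e-10 at 72 h). None of 5 inhibitors of cyclin-dependent kinases was called by glmTreat in the time course. The quasi-likelihood test at 72 h had 1 lower and 3 higher, against 36.2% and 36.5% of all genes. An unadjusted p under 0.05 was found for 4 of the 5, against 10363 of 13925 genes. Of 16 mitosis genes, 0, 2 and 5 were called lower, led by Kif20a at 72 h with −1.21 ± 0.045 (adjusted p = 1.1e-13), and Ccnb2 had the greatest decrease from 24 to 72 h, −1.36 ± 0.053 (adjusted p = 1.22e-13). Over all 106 listed genes 5, 18 and 27 were called lower at 24, 48 and 72 h, against 3.41%, 7.71% and 12.0% of all genes, with medians of −0.10, −0.31 and −0.45. With library size alone the counts were 3, 9 and 17, where the share of all genes was not counted, and DESeq2 called 3 at 24 h.

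Protein-coding genes that start within 1000 bp of a licensing gene on the opposite strand gave a view of shared promoters. These were Prkdc beside Mcm4 (489 bp), Ap4m1 beside Mcm7 (184 bp), Prpf38a beside Orc1 (118 bp) and Ufd1, whose start lies inside Cdc45 and whose promoter has the same ZFP143 peak. At 72 h Ap4m1, an adaptor protein subunit, rose with a log2 change of 0.78 ± 0.063 (glmTreat, adjusted p = 0.00205), where Mcm7, which overlaps it on the other strand, had −0.71. Prkdc, a DNA repair kinase, had −0.44, Prpf38a −0.06 and Ufd1 0.19, and none of these 3 was called. In TT-seq at 24 h the 4 partners had log2 changes of 0.31, −0.40, 0.17 and −0.03 in the order of the pairs above, and none was called. Without 1 library that of Prkdc ranged from 0.14 to 0.47 and that of Prpf38a from 0.00 to 0.38.

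The RA experiment asked how the licensing genes respond when stem cells leave their state, with and without ZFP143. After 24 h of RA, licensing RNAs were far lower in both conditions. In DMSO 8 of 10 fell beyond 1.5-fold (glmTreat), all but Mcm6 and Cdc45, against 18.1% of the 15915 genes called lower, and in dTAG all 10 fell, against 18.5%. Under dTAG the call of Mcm2 was lost with library size alone (log2 −0.60, adjusted p = 0.341), and that of Cdc45 in several alternatives given with its values. Against no change, all 10 were lower in both, against 37.5% and 39.3% of all genes. The median log2 change of the 10 was −1.46 in DMSO and −1.41 in dTAG, against 0.03 and 0.00 over all genes.

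**Figure D4:**
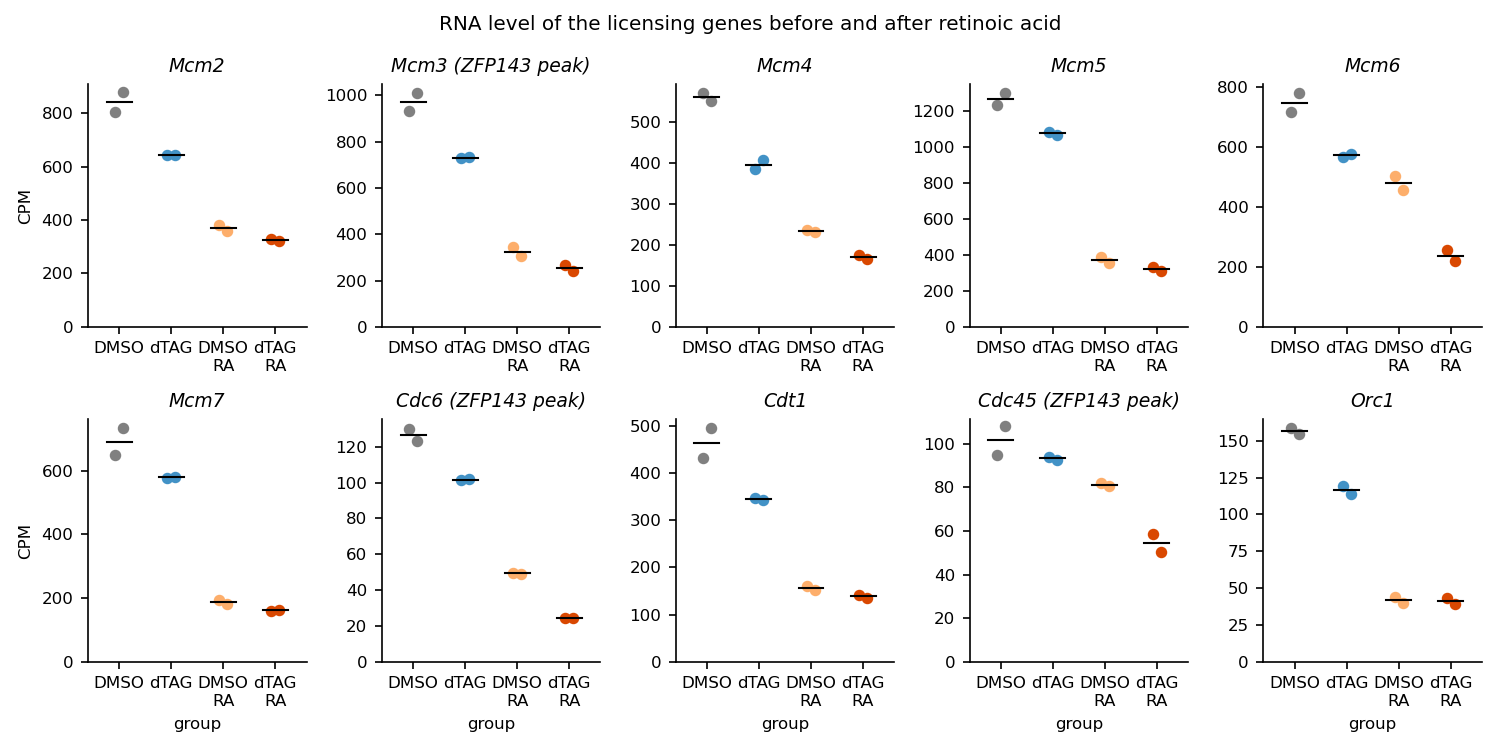
RNA level (CPM, scaled by TMM, axis from 0) of the 10 licensing genes in the 2 libraries of each group (points) with their mean (line): DMSO and dTAG before RA, then DMSO and dTAG after 24 h of RA. For Orc1 the groups after RA coincide, at 43.7 and 40.0 and 43.3 and 39.3, while for Mcm6 they are apart, at 504 and 458 in DMSO and 255 and 219 in dTAG.

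The deepest RA effects in DMSO were those of Orc1, Mcm7 and Mcm5. Orc1 was at 159 and 154 CPM before and 43.7 and 40.0 after RA, a decrease of 3.73-fold (log2 −1.90 ± 0.079, glmTreat, adjusted p = 5.11e-13). Mcm7 was at 648 and 732 CPM before and 194 and 182 after RA, a decrease of 3.67-fold. Mcm5 was at 1238 and 1301 CPM before and 388 and 355 after RA, a decrease of 3.41-fold. All libraries after RA were below all libraries before it for these 3 genes, as they were for each of the 10. Mcm3, Cdt1, Cdc6, Mcm4 and Mcm2 followed with log2 changes of −1.58, −1.56, −1.36, −1.26 and −1.19 (adjusted p at most 1.51e-08). Mcm6 with −0.64 ± 0.079 and Cdc45 with −0.32 ± 0.083 passed the quasi-likelihood test alone (adjusted p = 2.63e-07 and 0.00145).

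The share of the 10 genes whose RA effect was more negative in dTAG than in DMSO was close to that of all genes. The difference of the log2 effects (dTAG minus DMSO) was tested as an interaction, and it was more negative in dTAG for Mcm6 and Cdc6, 2 of 10 against 18.0% of all genes (quasi-likelihood, adjusted p under 0.05 and above 0.5 in size). With no minimum size Cdc45 was added, 3 of 10 against 24.1%, and Orc1 was more positive in dTAG, 1 of 10 against 18.8%. Since dTAG had lasted 24 h before RA and 48 h after it, this difference also holds the further 24 h of depletion, and the 2 cannot be told apart.

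Mcm6 went with RA from 716 and 781 to 504 and 458 CPM under DMSO and from 568 and 577 to 255 and 219 CPM under dTAG. The 4 groups did not overlap. The RA effect was −0.64 in DMSO and −1.27 in dTAG, a difference of −0.64 ± 0.11 (adjusted p = 0.000113), which fell short of the minimum size at −0.48 without dTAG RA replicate 2 (adjusted p = 0.00285). Cdc6 went with RA from 130.0 and 123 to 49.6 and 49.2 CPM under DMSO and from 101 and 102 to 24.1 and 24.2 CPM under dTAG. Its RA effect was −1.36 in DMSO and −2.07 in dTAG, a difference of −0.71 ± 0.11 (adjusted p = 1.71e-05), and its call held in every alternative run.

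Cdc45 went with RA from 95.1 and 108 to 81.8 and 80.8 CPM under DMSO and from 94.1 and 92.8 to 58.8 and 50.4 CPM under dTAG. The difference of its RA effects was −0.45 ± 0.12 (adjusted p = 0.00384), which passed the minimum size without DMSO replicate 2 (−0.55) or dTAG RA replicate 1 (−0.51) and with no count filter (−0.51). Without dTAG RA replicate 2, by contrast, the RA effect of Cdc45 in dTAG was smaller, −0.59 rather than −0.78. Its own RA effect in dTAG, −0.78 ± 0.084, was just past the threshold (glmTreat, adjusted p = 0.00953), and it was lost without any 1 of the 4 dTAG libraries (adjusted p from 0.013 without dTAG RA replicate 1 to 0.442 without dTAG RA replicate 2, and 0.03 and 0.0232 without dTAG replicates 1 and 2), with DESeq2 (0.299), with DESeq2 size factors in edgeR (0.0269), with library size alone (log2 −0.38) and with a replicate block (0.0123). Orc1 was at 119.7 and 114 CPM in dTAG before RA and 43.3 and 39.3 after, and its difference was 0.40 ± 0.11 (adjusted p = 0.0058), or 0.52 without dTAG RA replicate 2, when it passed the minimum size. For Mcm3, Mcm4, Mcm5 and Mcm7 the difference was between 0.03 and 0.06, and the 95% interval was −0.17 to 0.29 for Mcm3 and −0.18 to 0.25 for Mcm7. For Mcm2 and Cdt1 it was 0.20 ± 0.1 and 0.25 ± 0.1 (adjusted p = 0.118 and 0.0621).

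**Figure D5:**
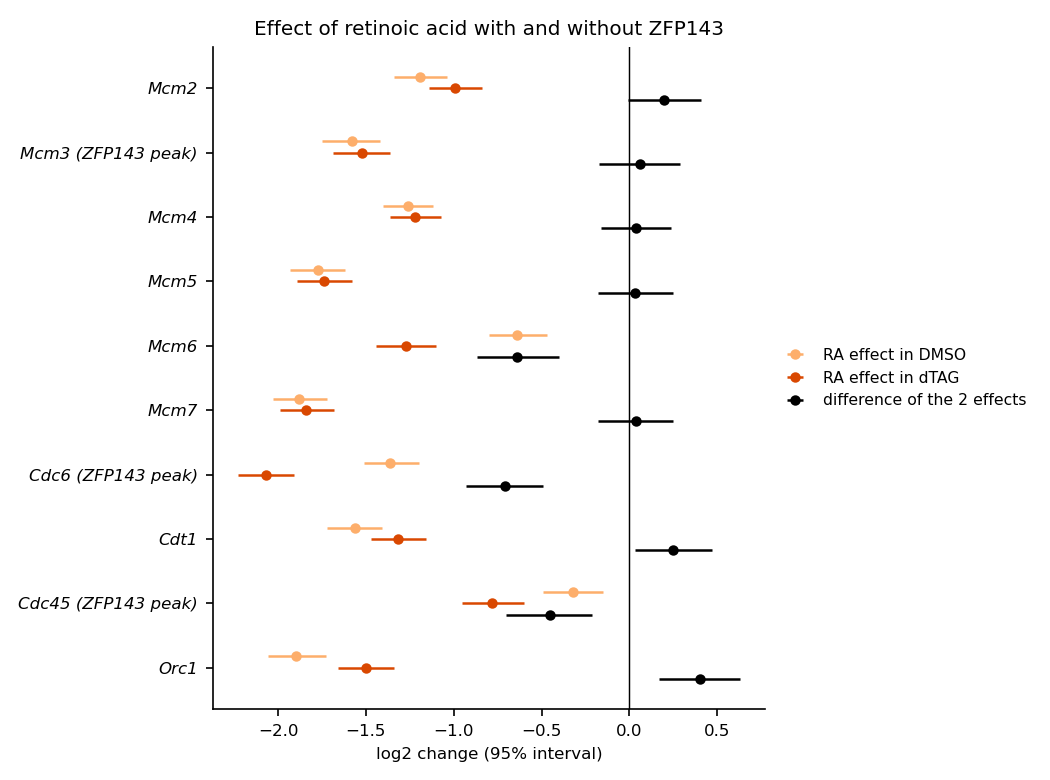
Log2 effect of RA on the 10 licensing genes in DMSO and in dTAG cells, and the difference of the 2 effects (dTAG minus DMSO, black), each with its 95% interval; 2 libraries per group. The black intervals of Mcm6, Cdc6 and Cdc45 lie below 0, those of Orc1 and Cdt1 above it, and those of Mcm3, Mcm4, Mcm5 and Mcm7 span 0.

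Set against DMSO after RA, depleted cells had 2 of 10 genes called lower, against 7.36% of all genes, and 9 of 10 lower in the quasi-likelihood test, all but Orc1, against 30.0%. Cdc6 had a log2 change of −1.03 ± 0.08 there and Mcm6 −1.02 ± 0.081 (glmTreat, adjusted p = 1.87e-05 and 2.3e-05). The time course at the same 48 h of dTAG, in stem cell medium and with its own controls, gave −0.80 and −1.03. Cdc45 had −0.58 after RA and −0.38 in the time course, Mcm7 −0.22 and −0.50, and Orc1 −0.02 and −0.57. With library size alone the values of Mcm2, Mcm5, Cdt1 and Orc1 after RA were above 0.

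Of the 106 listed genes, glmTreat called 41 lower and 9 higher with RA under DMSO, and 57 lower and 5 higher under dTAG. Of all genes 18.1% were lower and 25.8% higher under DMSO, and 18.5% lower and 25.0% higher under dTAG. With library size alone 24 and 29 of the 106 were called lower and 10 higher under dTAG, where the share of all genes was not counted. The greatest decreases in DMSO were those of Fen1, a flap nuclease, with −1.82 ± 0.078, Rrm2, a subunit of ribonucleotide reductase, with −1.78 ± 0.072, Recql4, a helicase of origin firing, with −1.67 ± 0.085, Fbxo5, an inhibitor of licensing factor turnover, with −1.49 ± 0.082, E2f4 with −1.48 ± 0.068, Cdkn1a with −1.23 ± 0.099, Kif20a with −1.15 ± 0.069 and Orc5 with −1.09 ± 0.075 in their lists. In dTAG they were Ccne1 with −2.07, the sliding clamp Pcna with −2.03, Rrm2 with −2.02, E2f8 with −2.02, Fbxo5 with −1.93, Aurka with −1.74 and Gmnn, the inhibitor of Cdt1, with −1.38. Genes that rose in both conditions included Cdkn1c, an inhibitor of cyclin-dependent kinases, with 4.01 ± 0.23 in DMSO and 3.56 ± 0.21 in dTAG, Rb1 with 2.43 and 2.63, Pold4 with 1.85 and 1.29, and Rrm2b with 1.65 and 1.00. Cul4a rose by 1.25 in DMSO (glmTreat, adjusted p = 3.06e-09).

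In the interaction 30 of the 106 listed genes were more negative in dTAG and 3 more positive, against 18.0% and 13.7% of all genes. Mitosis genes made up 10 of the 30, of 16 in their list, with Ccnb2 at −1.28 ± 0.12 (adjusted p = 3.11e-08), and 5 of the 7 genes of nucleotide supply were among them, with Dut at −0.78 ± 0.12. E2f8, a repressor of the E2F family, had the greatest difference, −2.16 ± 0.15 (adjusted p = 5.55e-10). Gmnn had −0.80, Ccna2 −0.75, Pold2 −0.81, Skp1a −0.66 and Cdkn2a −0.71, the most negative differences of their lists. The difference of Cdkn2a came from 0.43 with RA in DMSO and −0.28 in dTAG. The 3 more positive in dTAG were Cdkn1a, the p21 inhibitor, with 1.73 ± 0.14, Recql4 with 0.97 ± 0.12 and Fen1 with 0.64 ± 0.11. Before RA 6 of the 106 were called lower in dTAG (3.66% of all genes), led by Skp2 with −1.45, Lig1 with −1.22, Rbl1 with −1.19, Tk1 with −0.88 and Kif20a with −0.82 in their lists. After RA 17 were called lower in dTAG (7.36% of all genes) and 2 higher (9.10%), with E2f8 at −2.30, Tk1 at −1.44, Pold2 at −1.25, Skp2 at −1.21, Plk1 at −1.17 and Ccne1 at −0.98, and Cdkn1a and Recql4 rose with 1.11 and 1.01.

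The genes most like the mean of the 10 over the 16 RNA-seq libraries were not replication genes by name, and which genes came first depended on the measure. Among 9758 genes with a mean count of at least 100 in both tables, the 5 non-members with the highest Pearson correlation of log2(CPM + 1), centred in each table, were Eif3l (translation initiation, 0.997), Kpnb1 (nuclear import, 0.996), Uhrf1 (maintenance of DNA methylation, 0.996), Ppil1 (splicing, 0.995) and Ppm1g (a phosphatase, 0.995). By Spearman correlation they ranked from 30 to 304, and 0 of these 5 were among the first 5. Of the listed pathway genes, 103 were compared, 1.06% of the non-members, and 4 were among the 100 non-members with the highest values. The members, each of which is part of that mean, ranged from 0.997 for Mcm3 to 0.885 for Cdc45 and 0.856 for Mcm6. Within the 8 libraries of the time course Mcm6 had 0.99 and Orc1 had 0.738. The libraries of a group share their treatment, so these values only describe the pattern.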

How the data were processed

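The members and all gene lists were chosen with earlier results of these data known. The authors deposited raw counts per gene, from STAR alignments (mm10, GENCODE vM25), for TT-seq made with htseq-count over whole genes after removal of duplicates, so introns count, and for RNA-seq by the counting mode of STAR, with the strand column not given in the sources used here. The ZFP143 peak list deposited by the authors holds for each peak a ratio to input (fold enrichment) and −log10 of the q-value, from MACS2. CTCF peaks were listed without values. 4C files were not used.

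A gene needed over 10 counts in 4 or more of 8 libraries, and was then tested with edgeR 4.0.16 (limma 3.58.1, R 4.3.3) after TMM scaling, 1 fit of 4 groups of 2 per table, with Benjamini-Hochberg adjustment over all tested genes. TT-seq and the interaction used the quasi-likelihood test. RNA-seq contrasts used glmTreat against 1.5-fold, with the quasi-likelihood test beside it. Standard errors and intervals come from the quasi-likelihood fit, and CPM use TMM-scaled library sizes. The fits were tested on simulated data. A peak counted as at a promoter where it overlapped 2000 bp upstream to 1000 bp downstream of a transcript start of GENCODE vM21 (mm10), with its centre within 2000 bp. Of 107 listed pathway symbols 106 were found. Named were the 10 genes, Zfp143, divergent partners within 1000 bp, the called gene with the greatest decrease and increase of each list and comparison, and the 5 most similar genes. Skp2, Lig1, Bub1b, Plk1 and Rrm2 in TT-seq were added after their values had been seen. Alternatives were DESeq2 1.42.0, other scalings, no count filter, a replicate block, each library left out, the call rule and other peak windows.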

Additional observations from a re-analysis of the deposited data

Results flagged for a closer look

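Several differences between effects passed their own test. In the interaction of RA with dTAG (edgeR quasi-likelihood, adjusted p under 0.05, a positive value being a higher RA effect under dTAG) these were, among the licensing genes, Mcm6 with −0.64, Cdc6 with −0.71, Cdc45 with −0.45 and Orc1 with 0.40 on the log2 scale. Among the named genes of the other lists, the values were −2.16 for E2f8, −1.28 for Ccnb2, −0.81 for Pold2, −0.80 for Gmnn, −0.78 for Dut, −0.75 for Ccna2, −0.71 for Cdkn2a, −0.66 for Skp1a, 0.64 for Fen1, 0.97 for Recql4 and 1.73 for Cdkn1a. The depleted cells had 24 h more of dTAG after RA, so longer depletion and RA cannot be told apart.

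For the change at 72 h minus that at 24 h of dTAG, the licensing genes that passed were Mcm6 with −0.92, Cdc6 with −0.61, Mcm7 with −0.57, Mcm3 with −0.34, Mcm4 with −0.32, Mcm5 with −0.27, Mcm2 with −0.21 and Cdc45 with −0.20. In the other lists Tk1 had −1.95, Pold2 −1.39, Ccnb2 −1.36, Ccne1 −1.21 and Tfdp2 −0.88. Groups of 2 libraries are too small for a check of single libraries that stand apart.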

How the results depend on the processing

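Of 2274 values of named genes under the alternatives, 39 changed sign, and none of these was called. Scaling by library size gave a median over all genes of 0.15, 0.21 and 0.23 at 24, 48 and 72 h, of 0.2 and 0.21 between dTAG and DMSO before and with RA, and of 0.35 and 0.39 for the RA effects. The log2 changes then became 0.03 for Mcm6, 0.04 for Orc1 and 0.03 for Ufd1 in TT-seq at 24 h, 0.04 for Mcm5, 0.02 for Cdc6 and 0.10 for Cdc45 in RNA-seq at 24 h, 0.01 for Mcm5 and 0.03 for Cdt1 at 48 h, 0.16 for Prpf38a at 72 h, 0.01 for Cdc45 before RA, and 0.19 for Orc1, 0.02 for Mcm2, 0.01 for Mcm5 and 0.03 for Cdt1 in dTAG after RA. With no count filter the RA interaction became −0.01 for Mcm7, −0.02 for Mcm5 and −0.01 for Mcm4, and with DESeq2 Orc1 in dTAG after RA became 0.01. The cause was not tested.

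Licensing genes called lower numbered 1 at 48 h and 1 at 72 h with DESeq2 and with library size alone. With no minimum change they numbered 8, 10 and 10 at 24, 48 and 72 h, 8 from 24 to 72 h, 9 in dTAG before and 9 after RA, and 1 was called higher in the interaction. Listed pathway genes called lower at 24 h numbered 3 with DESeq2. With library size alone those called lower numbered 3, 9 and 17 at 24, 48 and 72 h, 3 and 8 in dTAG before and with RA, and 24 and 29 for RA under DMSO and dTAG, and those called higher 3 and 4 at 48 and 72 h, 1 in dTAG before RA, 10 for RA in dTAG and 6 in the interaction. With no minimum change those called lower numbered 45, 75, 75 and 73 at 24, 48 and 72 h and from 24 to 72 h, 39 and 70 in dTAG before and with RA, 76 and 87 for RA under DMSO and dTAG and 48 in the interaction, and those called higher 14, 16, 17 and 16, 17 and 9, 17 and 15, and 10 in the same order. With no count filter 1 was called higher in TT-seq at 6 h. None of the 5 genes most like the members by Pearson correlation was among the top 5 by Spearman, an overlap of 0, and the peak settings all gave the same 3 genes.

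Leaving out 1 library gave 0 to 2 listed genes called lower in TT-seq at 2 h, 1 to 2 at 6 h, 4 to 7 at 24 h and 3 to 5 in RNA-seq at 24 h, 0 to 1 called higher at 72 h and 3 to 5 in the interaction. It gave 1 to 2 licensing genes called at 48 and at 72 h, and 1 to 3 lower and 0 to 1 higher in the interaction. The log2 changes that crossed 0 ranged in TT-seq at 2 h −0.17 to 0.02 for Mcm3, −0.01 to 0.20 for Mcm6, −0.15 to 0.06 for Mcm4, −0.07 to 0.08 for Cdc45 (0.00 with all libraries), in TT-seq at 6 h −0.13 to 0.06 for Mcm3, −0.05 to 0.11 for Mcm4, −0.08 to 0.07 for Cdc45, in TT-seq at 24 h −0.16 to 0.09 for Mcm6, −0.12 to 0.09 for Orc1, −0.21 to 0.09 for Cdc6, −0.25 to 0.01 for Mcm4, −0.12 to 0.08 for Ufd1, in RNA-seq at 24 h −0.08 to 0.03 for Cdc45, in RNA-seq at 72 h −0.13 to 0.01 for Prpf38a, in dTAG after RA −0.07 to 0.07 for Orc1, in the interaction −0.01 to 0.19 for Mcm3, −0.05 to 0.12 for Mcm7, −0.01 to 0.15 for Mcm5.

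Replicate numbers pair the samples by number alone. Deviations of same-numbered libraries correlated at 0.193 to 0.631 in TT-seq, −0.042 to 0.062 in the time course and −0.099 to 0.125 in the RA experiment. In TT-seq at 24 h Mcm2, Mcm3, Mcm5, Mcm7, Cdt1 and Cdc45 were lower than DMSO in both same-numbered pairs. The share of all genes that were so was not counted. Under a replicate block their log2 changes were −0.30, −0.13, −0.08, −0.29, −0.46 and −0.27 in this order. The adjusted p (quasi-likelihood) were 0.06, 0.451, 0.587, 0.111, 0.0921 and 0.0885, and 0.17, 0.591, 0.705, 0.228, 0.233 and 0.266 without the block. With a replicate block 1 listed gene, against 0, was called higher in TT-seq at 6 h, Cdc45 lost its call for RA in dTAG (adjusted p = 0.0123), and no other count of calls moved by over 1.5 times.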
